A study of Mus musculus with 6 samples.

Results

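Genes of macrophages, other myeloid cells and neutrophils were followed in whole mouse testes with and without a conditional knockout of Dis3l2, which encodes an exoribonuclease. The set holds 36 genes, chosen by symbol from a list of leukocyte, macrophage, antigen presentation and neutrophil genes, of 54232 genes counted in all. All 36 were found in the table, and 35 passed the filter on low counts. The exception was the neutrophil granule gene Ngp. The set falls into 4 roles: 12 genes of leukocyte and myeloid signalling, 13 of resident macrophages, 5 of antigen presentation and 6 of neutrophils.

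The series compared 3 testis samples with the genotype label Dis3l2 WT and 3 with the label Dis3l2 cKO, all from B6D2F1 mice at postnatal day 4. The labels name neither the Cre driver nor the deleted exons, and they leave unsaid whether each sample is a different animal. The p-values therefore cover the spread between the deposited samples, which may be technical. Values are read counts per gene, given as CPM, the count scaled to a fixed library size. The WT libraries held 35750784 to 43265614 counts and the cKO libraries 26126694 to 35390560.

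Resident macrophages seed the testis before birth and live in the interstitium and around the seminiferous cords, where they take up dying cells and debris. Their survival depends on the receptor CSF1R, and they are told apart from circulating monocytes by scavenger and phagocytic receptors. Neutrophils are short-lived blood granulocytes whose cytoplasm is filled with the calcium-binding proteins S100A8 and S100A9 and whose granules carry antimicrobial proteins. Antigen-presenting cells load peptides on MHC class II molecules, which are escorted by the invariant chain CD74.

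The libraries carried testis markers, since all 15 Sertoli cell and all 12 germ cell markers listed passed the filter. Dis3l2 itself had 30.6 to 33.6 CPM over the 6 libraries, and a count over the whole gene does not check the deletion. Germ cell markers summed to 912 to 956 CPM in WT and 513 to 571 in cKO, and 9 of the 12 were lower. The library cKO 1 stood apart from its group: its chi-square per gene was 13.2 against cKO 2 and 21.7 against cKO 3, where the other pairs within a group had 4.18 to 7.01. Its 14 peritubular and stromal markers summed to 11690 CPM, near the WT libraries (10830 to 11730) and above cKO 2 and cKO 3 (8679 and 8807).

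Among the 35 genes tested, 6 were higher in cKO, 0 were lower and 29 did not pass (edgeR quasi-likelihood test, Benjamini-Hochberg adjusted p under 0.05 over all 20153 genes). Of all genes tested, 3.4% were higher and 4.94% lower by the same rule. The 6 were S100a8, S100a9, Ptprc, Lyz2, Mrc1 and Csf1r. At an unadjusted p under 0.05, 13 were higher and 1 was lower, where the shares over all genes were 11.3% and 12.1%. DESeq2 called 7 higher and 0 lower, beside 5.32% and 7.19% of all genes it gave an adjusted p, and limma-voom called 7 higher and 0 lower, beside 3.71% and 5.23%. The median log2 fold change of the 35 genes was 0.35, beside 0.01 over all genes, and 30 were fitted above 0. In 13 genes every cKO library lay above every WT library and in 1 gene, Cd74, every cKO library lay below, beside 13.6% and 14.6% of all genes. Without cKO 1, 8 genes were higher, the 6 and also Cx3cr1 and Cd52, beside 8.09% of all genes. In whole tissue, more cells of a type and more RNA per cell cannot be told apart.

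**Figure D1:**
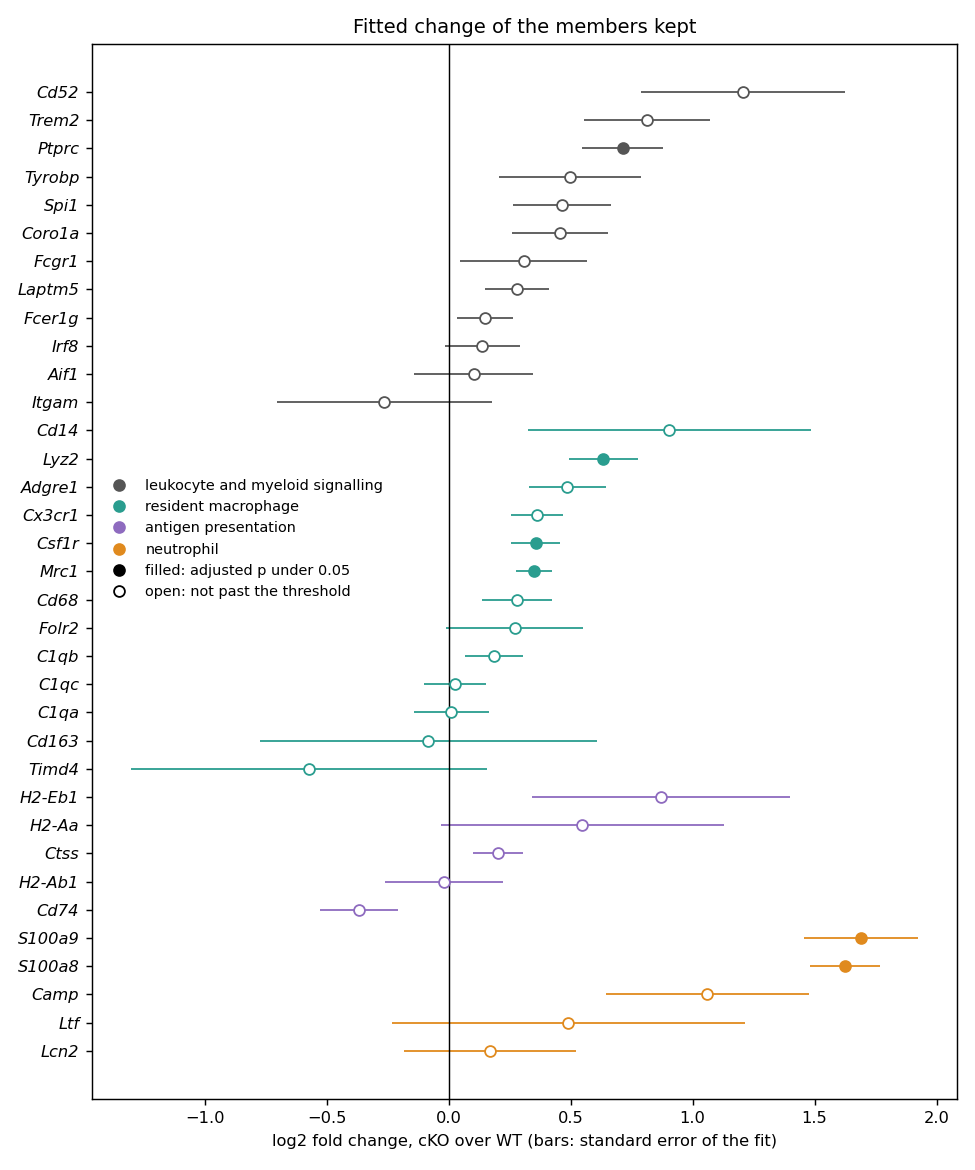
Fitted log2 fold changes of the 35 genes tested, cKO over WT, with the standard error of the fit as bars and colours by role. Filled points passed an adjusted p of 0.05; S100a8 and S100a9, at 1.62 and 1.69, lie farthest to the right, and none of the filled points lies below 0.

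The S100 pair showed the largest difference of the set. S100a8 (chromosome 3, 90668978 to 90670035, plus strand, GRCm38) encodes a subunit of calprotectin, the heterodimer that makes up much of the soluble protein of neutrophils. It had 2.59, 2.51 and 2.51 CPM in WT 1 to 3, from 109, 109 and 90 counts, and 7.12, 8.65 and 7.68 CPM in cKO 1 to 3, from 187, 296 and 268 counts. The WT libraries were nearly alike, and the lowest cKO library was well above them. S100a8 was 3.08-fold higher in cKO (log2 fold change 1.62, SE 0.14, adjusted p = 3.6e-05, edgeR quasi-likelihood test).

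S100a9 (chromosome 3, 90692632 to 90695721, minus strand) encodes the partner subunit. Its levels were 1.78, 1.52 and 2.12 CPM in WT, from 75, 66 and 76 counts, and 4.19, 7.75 and 5.45 CPM in cKO, from 110, 265 and 190 counts. All cKO libraries were above all WT libraries, with cKO 2 the highest and cKO 1 the lowest of its group. The gene rose 3.23-fold (log2 fold change 1.69, SE 0.23, adjusted p = 0.00093, edgeR quasi-likelihood test). Both calls held in all 15 alternative analyses. The highest adjusted p was 0.00077 for S100a8 and 0.012 for S100a9, both without WT 2.

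The subunits stayed near equal amounts per length. Levels were 3.66 ± 0.07 CPM per kilobase of exon in WT for S100a8 and 3.46 ± 0.58 for S100a9 (SD, n = 3). In cKO they were 11.3 ± 1.1 and 11.1 ± 3.5 (SD, n = 3). The ratio of S100a9 to S100a8 per kilobase was 0.91, 0.81 and 1.12 in WT and 0.78, 1.19 and 0.94 in cKO, so the groups overlapped. By cKO mean the pair had the highest levels per length of the 36 genes, ahead of Fcer1g at 10.04 ± 0.57. In cKO 1 alone, Fcer1g (10.7) was above S100a8 (10.3) and S100a9 (8.03). By WT mean the pair ranked below Fcer1g (9.04 ± 0.70), Cd68 (8.05 ± 1.74) and other members. The neighbouring S100 genes S100a13, S100a16, S100a6 and S100a7a had log2 fold changes of -0.04, 0.12, 0.02 and 0.10, and none of these 4 passed the test in edgeR.

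The upstream sequences of the pair are given because the genes lie close together on opposite strands and rose together. They are RefSeq sequences from GRCm38.p6, 5′ to 3′ on the gene's strand. Capitals mark the core motif of PU.1, the myeloid transcription factor encoded by Spi1, searched as AGGAAGT on both strands in the 250 bases before the RefSeq start, from which distances are counted. The RefSeq start can differ from the end of the gene model used for counting. The S100a8 stretch is chr3:90668891-90669070 and the S100a9 stretch chr3:90695722-90695901.
S100a8: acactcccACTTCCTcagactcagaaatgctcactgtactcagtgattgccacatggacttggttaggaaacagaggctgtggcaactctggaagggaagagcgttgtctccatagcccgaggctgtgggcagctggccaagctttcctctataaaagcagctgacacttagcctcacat
S100a9: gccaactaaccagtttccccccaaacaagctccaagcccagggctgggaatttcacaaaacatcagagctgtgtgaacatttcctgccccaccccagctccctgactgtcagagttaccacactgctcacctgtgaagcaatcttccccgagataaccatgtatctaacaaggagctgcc
S100a8 held the motif on the minus strand 172 bases before its RefSeq start at 90669071, and the window before the S100a9 start at 90695721 held none. The counted model of S100a8 begins farther upstream, so the last 93 bases of its stretch lie inside that model. Over the 32851 promoters of the RefSeq table, 7.69% held it. The core motif of C/EBP factors, TTGCGNAA, was in 0.67% of all promoters and in none of the 31 promoters of the 27 members with an entry.

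The other neutrophil genes, which encode granule proteins, did not pass the test. Camp encodes the antimicrobial peptide cathelicidin and had 0.43, 0.28 and 0.36 CPM in WT against 0.91, 0.73 and 0.60 in cKO. The groups did not overlap, and the log2 fold change was 1.06 (SE 0.42, adjusted p = 0.15, edgeR). Lcn2, whose protein binds bacterial siderophores, had 4.54, 2.23 and 2.01 CPM in WT and 1.64, 4.21 and 3.96 in cKO. WT 1 was the highest library and cKO 1 the lowest, the groups overlapped, and the log2 fold change of 0.17 turned to -0.03 without WT 3 and -0.05 without cKO 2. Ltf, the gene of the iron-binding lactoferrin, lay between 0.06 and 0.50 CPM in all libraries (log2 fold change 0.49, adjusted p = 0.75, edgeR). Its fitted value moved from 0.06 without WT 3 to 1.595 without WT 1. Ngp had 11, 2 and 6 counts in WT and 4, 4 and 9 in cKO and was not tested. Without the S100 pair the neutrophil genes summed to 5.74, 2.72 and 2.59 CPM in WT and 3.20, 5.20 and 5.22 in cKO, and edgeR, DESeq2 and limma-voom called 0 of the 3 tested (1 at an unadjusted p under 0.05, Camp).

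Of 18 further granulocyte genes, only 6 passed the filter and 14 were under 1 CPM in every library. None of the 6 was called by edgeR, with 3 higher at an unadjusted p under 0.05, and DESeq2 and limma-voom called 1 each. Ly6g, the surface antigen used to identify neutrophils, had 0 counts in all 6 libraries. A count of 0 allows up to 3 counts, or 0.07 to 0.11 CPM, for counting error only. That limit does not cover reads that mapped to several places or lay over several genes, which were not counted. Copies of Ly6g and genes that overlap it were not searched, so its counts do not show that the RNA was absent. The neutrophil collagenase gene Mmp8 had 0.17, 0.18 and 0.42 CPM in WT and 0.53, 1.11 and 0.77 in cKO, with no overlap (log2 fold change 1.68, SE 0.50, adjusted p = 0.062, edgeR). Only WT 3 among its WT libraries was above the filter level of 0.281 CPM, so Mmp8 entered the test through its cKO libraries. It was also chosen after its values were seen. Stfa2l1, of the stefin protease inhibitor family, had 0.71, 0.37 and 0.59 CPM in WT and 0.80, 1.52 and 1.92 in cKO (1.36, SE 0.40, adjusted p = 0.056, edgeR). It passed without cKO 1 (0.0039) and in DESeq2 (0.021) but not in limma-voom, whose 1 call was another of the 6 genes. The gelatinase gene Mmp9, at 14.6 to 16.6 CPM in WT and 11.7 to 15.5 in cKO, overlapped between groups (log2 fold change -0.13, adjusted p = 0.55, edgeR). The part of neutrophil number in the S100 result was not tested.

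**Figure D2:**
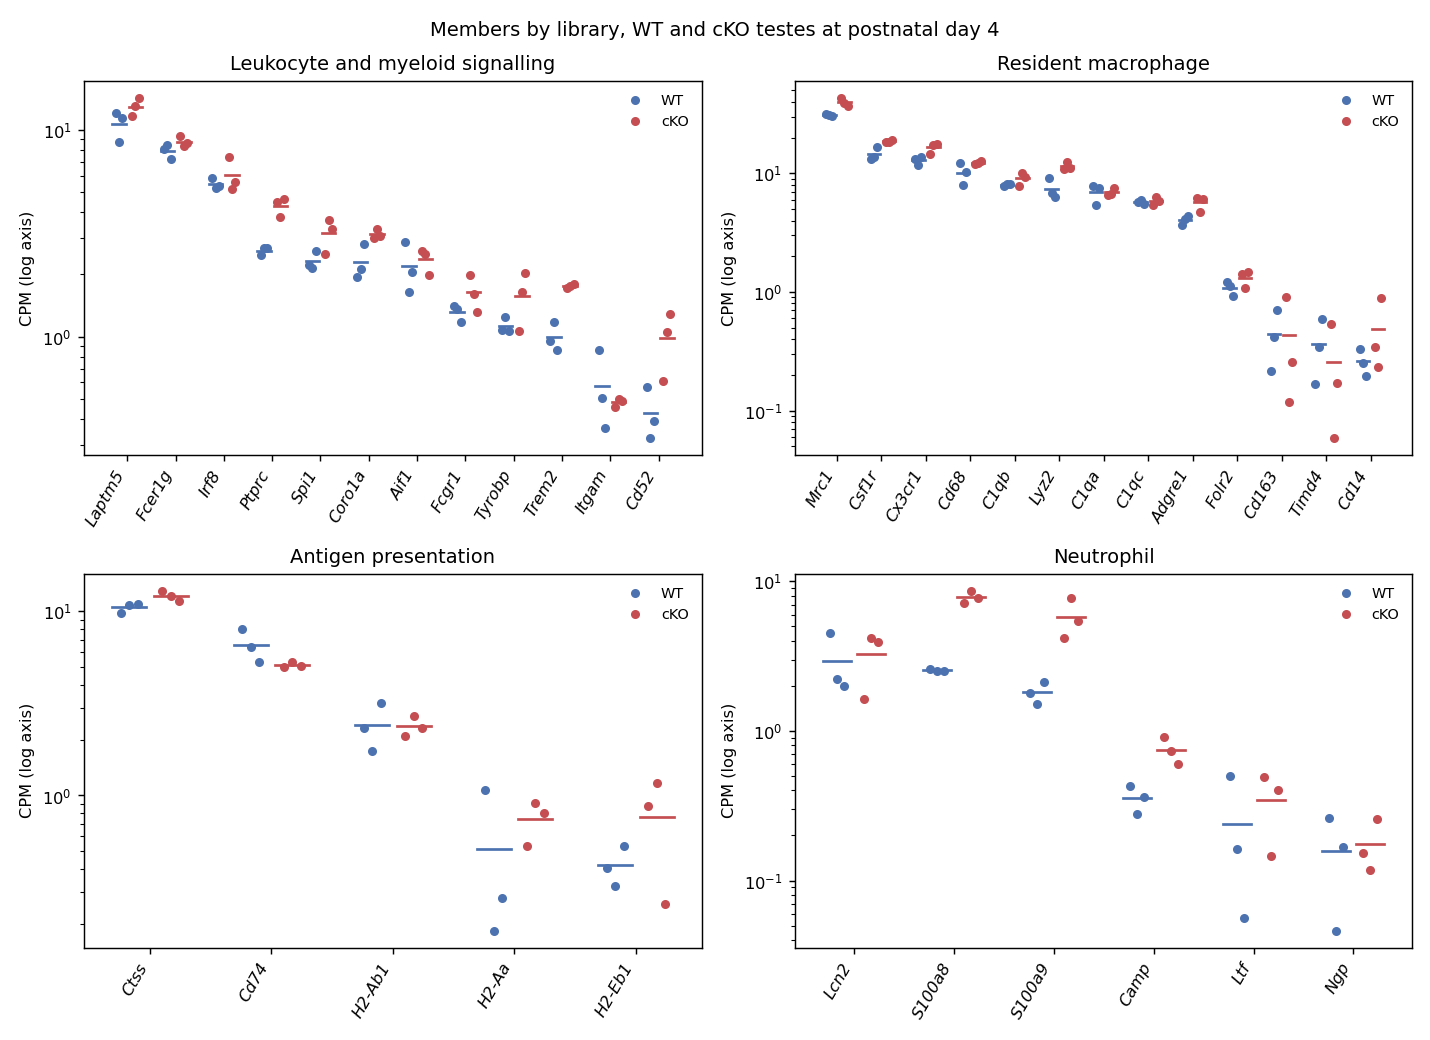
CPM of each gene on a log axis in the 3 WT (blue) and 3 cKO (red) libraries, in a panel for each role and ordered by WT mean, with points for libraries and bars for group means. The groups lie apart for S100a8 and S100a9, whereas the points of Lcn2, Ltf and Ngp in the same panel overlap.

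Among the leukocyte and myeloid signalling genes 1 of 12 rose, 0 fell and 11 did not pass. The median log2 fold change was 0.38, and 11 were fitted above 0. Ptprc encodes CD45, the tyrosine phosphatase on the surface of all nucleated blood cells. Its 3 WT libraries had 2.48, 2.67 and 2.68 CPM and its cKO libraries 4.46, 3.77 and 4.62. There was no overlap, and the fitted difference was 0.71 on the log2 scale (SE 0.17, edgeR quasi-likelihood adjusted p = 0.020). The adjusted p was 0.076 without WT 1, 0.075 without WT 2, 0.061 without WT 3 and 0.062 without cKO 3.

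Receptors and adaptors of the DAP12 and Fc receptor pathway were spread from little to larger fitted differences. Trem2, a lipid-sensing receptor of macrophages, had 0.95, 1.17 and 0.86 CPM in WT and 1.71, 1.75 and 1.81 in cKO. The cKO libraries were close together and all above WT, but the gene did not pass (log2 fold change 0.81, SE 0.26, adjusted p = 0.075, edgeR). Tyrobp encodes DAP12, the adaptor through which TREM2 signals, and had 1.07, 1.24 and 1.06 CPM in WT and 1.07, 1.64 and 2.04 in cKO (0.50, adjusted p = 0.34, edgeR). Its value in cKO 1 lay within the WT range. Fcer1g, the common gamma chain of activating Fc receptors, had 7.22 to 8.43 CPM in WT and 8.39 to 9.33 in cKO (0.15, adjusted p = 0.50, edgeR). Fcgr1, the high-affinity IgG receptor, had 1.17 to 1.40 CPM in WT and 1.32 to 1.98 in cKO (0.31, adjusted p = 0.54, edgeR).

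In a wider list of this pathway, 10 of 15 genes passed the filter, of which 3 were higher and 1 was lower in edgeR. The shares over all genes were 3.4% and 4.94%. The low-affinity IgG receptor gene Fcgr3 had 6.28, 4.72 and 4.69 CPM in WT and 8.34, 8.68 and 8.48 in cKO (0.70, SE 0.14, adjusted p = 0.0094, edgeR). It did not pass without WT 2 (0.063) or WT 3 (0.0503). Fcgr2b, the inhibitory IgG receptor that B cells also carry, had 1.83, 2.35 and 2.96 CPM in WT and 4.61, 3.89 and 4.73 in cKO (0.89, SE 0.20, adjusted p = 0.017, edgeR), and did not pass without WT 1 (0.072) or WT 2 (0.079). The kinase gene Syk, which acts below these receptors, rose by 0.43 (SE 0.10, adjusted p = 0.018, edgeR). That call was lost without any library but cKO 1, with adjusted p from 0.064 to 0.098. Plcg2, the phospholipase that SYK activates, fell by 0.34 on the log2 scale (SE 0.07, adjusted p = 0.012, edgeR), and did not pass without WT 2 (0.071), WT 3 (0.077) or cKO 2 (0.059). All cKO libraries of the 3 higher genes lay above all WT libraries, and those of Plcg2 lay below. The genes were picked by a test on these same libraries, so the separation is no further evidence.

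The transcription factors of the lineage were measured at a few CPM. Spi1, which encodes PU.1, had 2.21, 2.14 and 2.59 CPM in WT and 2.51, 3.68 and 3.33 in cKO, with cKO 1 inside the WT range (0.46, SE 0.20, adjusted p = 0.19, edgeR). Irf8, a regulator of monocyte and dendritic cell development, had 5.85, 5.25 and 5.36 CPM in WT and 7.39, 5.20 and 5.62 in cKO. Only cKO 1 was above WT, and the log2 fold change of 0.14 became -0.02 without it.

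The remaining leukocyte genes did not pass either. Cd52, a small surface glycoprotein of leukocytes, had 0.57, 0.32 and 0.39 CPM in WT and 0.61, 1.05 and 1.29 in cKO (1.21, SE 0.42, adjusted p = 0.10, edgeR). Its groups did not overlap, and it passed without cKO 1 (adjusted p = 0.025). Coro1a, an actin-binding protein of leukocytes, had 1.95, 2.12 and 2.82 CPM in WT and 3.01, 3.33 and 3.07 in cKO (0.46, adjusted p = 0.19, edgeR), again without overlap. Laptm5, a lysosomal membrane protein of blood cells, had 8.75 to 12.04 CPM in WT and 11.6 to 14.3 in cKO (0.28, adjusted p = 0.23, edgeR). Aif1 (IBA1), a macrophage cytoskeletal protein, had 1.64 to 2.88 CPM in WT and 1.98 to 2.59 in cKO (0.10, and -0.07 without WT 2). Itgam, the integrin chain CD11b of monocytes and neutrophils, had 0.86, 0.51 and 0.36 CPM in WT and 0.46, 0.50 and 0.49 in cKO (-0.26, and 0.14 without WT 1). The predicted gene Gm49368 shares 70.02% of the exon bases of Itgam in the same direction. Reads there were left out of the counts, so the level of Itgam is uncertain.

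In the resident macrophage role 3 of 13 genes were higher, 0 were lower and 10 did not reach the threshold, and DESeq2 and limma-voom called 4 each. The median log2 fold change was 0.28. Mrc1 encodes the mannose receptor CD206, which takes up glycoproteins. It had 31.9, 31.1 and 30.6 CPM in WT and 43.1, 39.5 and 36.7 in cKO. The WT libraries lay within a narrow range below all cKO libraries, and the fitted difference was 0.35 on the log2 scale (SE 0.08, edgeR quasi-likelihood adjusted p = 0.014). The adjusted p was 0.055 without WT 1, 0.081 without WT 2, 0.072 without WT 3, 0.061 without cKO 2 and 0.052 when libraries were scaled on somatic cell markers.

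Csf1r encodes the receptor for CSF1 and interleukin 34. It had 13.2, 13.9 and 16.6 CPM in WT and 18.4, 18.4 and 19.0 in cKO. The cKO libraries agreed closely and WT 3 was the nearest to them. The log2 fold change of 0.36 (SE 0.10) was just past the threshold (adjusted p = 0.049, edgeR quasi-likelihood test). It did not pass without WT 1 (0.19), WT 2 (0.20), cKO 2 (0.14) or cKO 3 (0.11), with library size alone (0.055) or with somatic marker scaling (0.11).

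Lyz2 encodes the lysozyme of macrophages and neutrophils. Levels were 9.09, 6.79 and 6.30 CPM in WT and 10.9, 12.5 and 11.04 in cKO, with WT 1 the nearest to cKO. The gene rose 1.55-fold (log2 fold change 0.63, SE 0.14, adjusted p = 0.017, edgeR quasi-likelihood test). It did not pass without WT 2 (0.0997), WT 3 (0.081) or cKO 2 (0.089). The transcript is 95.8% identical to that of Lyz1, which had 0 to 4 counts per library, and reads that mapped to both were not counted.

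Promoter stretches of the called leukocyte and macrophage genes with an entry in the RefSeq table (GRCm38.p6) are given to show the PU.1 core in the same way, in capitals. The coordinates are chr1:138175327-138175448 for Ptprc, chr10:117282336-117282402 for Lyz2 and chr2:14229173-14229239 for Mrc1.
Ptprc: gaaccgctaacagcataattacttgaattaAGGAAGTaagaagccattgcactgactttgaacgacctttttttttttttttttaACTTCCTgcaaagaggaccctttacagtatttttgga
Lyz2: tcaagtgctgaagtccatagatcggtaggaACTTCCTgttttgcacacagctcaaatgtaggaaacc
Mrc1: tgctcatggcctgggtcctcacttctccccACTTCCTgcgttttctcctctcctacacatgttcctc
Ptprc held a match on each strand, 113 and 58 bases before its RefSeq start at 138175305, and all 122 bases of its stretch lie inside the counted model, which reaches to 138175708. Lyz2 and Mrc1 held 1 match on the minus strand, 100 and 211 bases before their RefSeq starts. Of the 27 members with an entry, 8 held the motif (C1qb, C1qc, Fcgr1, Folr2, Lyz2, Mrc1, Ptprc and S100a8). Those 8 include called and uncalled genes. A match is a run of letters and does not show that the factor binds.

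Further surface and lysosomal genes of macrophages had fitted values above 0 without passing. Cx3cr1, the receptor for fractalkine on monocytes and tissue macrophages, had 13.3, 11.7 and 13.7 CPM in WT and 14.7, 17.4 and 17.6 in cKO. All cKO libraries lay above WT, and the log2 fold change of 0.36 (SE 0.10) was just short of the threshold (adjusted p = 0.055, edgeR). It passed in 6 of 15 alternatives, among them DESeq2 (0.026) and the fit without cKO 1 (0.0047). Adgre1, which encodes the F4/80 antigen, had 3.64, 4.12 and 4.38 CPM in WT and 6.25, 4.74 and 6.05 in cKO (0.49, SE 0.16, adjusted p = 0.080, edgeR), also without overlap. Cd68, a lysosomal glycoprotein, had 12.3, 7.90 and 10.2 CPM in WT and 12.1, 12.2 and 12.6 in cKO (0.28, adjusted p = 0.27, edgeR). WT 1 was as high as the cKO libraries.

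The complement C1q genes, which lie side by side on chromosome 4 and encode the recognition molecule of the classical pathway, did not pass the test. C1qa had 7.85, 5.36 and 7.48 CPM in WT and 6.55, 6.72 and 7.51 in cKO. C1qb had 7.83, 8.10 and 8.14 CPM in WT and 7.88, 10.1 and 9.32 in cKO. C1qc had 5.69, 5.96 and 5.52 CPM in WT and 5.41, 6.26 and 5.82 in cKO. The groups overlapped for each subunit. Log2 fold changes were 0.01 (SE 0.15), 0.19 (SE 0.12) and 0.03 (SE 0.13), and edgeR, DESeq2 and limma-voom called 0 of the 3, with 0 at an unadjusted p under 0.05 in edgeR. The sign of C1qa turned with library size alone (-0.01), with somatic marker scaling (-0.08), without WT 2 (-0.14) and without cKO 3 (-0.06). That of C1qc turned with somatic marker scaling (-0.06) and without cKO 2 (-0.03). Per kilobase, C1qc stood at 0.40 ± 0.02 of C1qb in WT and 0.36 ± 0.02 in cKO (SD, n = 3). In a list of 12 complement genes that passed the filter edgeR called 0 (4 higher and 2 lower at an unadjusted p under 0.05). DESeq2 called 2 higher and limma-voom 1 in each direction. The C1 inhibitor gene Serping1 had 137, 122 and 132 CPM in WT and 162, 142 and 152 in cKO, with no overlap (0.22, SE 0.06, adjusted p = 0.053, edgeR). It passed in 7 of 15 alternatives, among them the replicate block (0.0185) and the fit without cKO 1. C1ra, a protease of the C1 complex, had 23.8 to 27.0 CPM in WT and 25.7 to 29.8 in cKO (0.14, adjusted p = 0.38, edgeR). C3 and C4b, chosen after their values were seen, lay below WT in every cKO library. The central component C3 had 20.2, 24.5 and 22.04 CPM in WT and 7.20, 14.9 and 17.2 in cKO (-0.75, SE 0.22, adjusted p = 0.059, edgeR), and C4b had 1.52, 1.84 and 2.15 CPM in WT and 0.65, 1.23 and 1.12 in cKO (-0.86, SE 0.29, adjusted p = 0.097, edgeR).

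The receptor genes Folr2, Cd163, Timd4 and Cd14 had at most 1.46 CPM in any library. Folr2, a folate receptor, had 1.21, 1.13 and 0.92 CPM in WT and 1.41, 1.08 and 1.46 in cKO (0.27, adjusted p = 0.63, edgeR). Cd163, the haemoglobin scavenger receptor, had 0.21, 0.41 and 0.70 CPM in WT and 0.91, 0.12 and 0.26 in cKO. Timd4, which binds phosphatidylserine on dying cells, had 0.17, 0.35 and 0.59 CPM in WT and 0.53, 0.06 and 0.17 in cKO. For both genes WT 3 was the highest WT library and cKO 1 the highest cKO library, and the groups overlapped. The fitted value of Timd4 was -0.57 (SE 0.73) and that of Cd163 -0.08 (SE 0.69). Timd4 moved from -1.62 without cKO 1 to -0.07 without WT 3. Cd163 turned to 0.40 without WT 3, 0.38 without cKO 2 and 0.18 without cKO 3. Cd14, the lipopolysaccharide co-receptor, had 0.20 to 0.33 CPM in WT and 0.34, 0.23 and 0.89 in cKO (0.90, SE 0.58, adjusted p = 0.39, edgeR). Its high value came from cKO 3 alone, and the fitted difference was 0.12 without it.

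**Figure D3:**
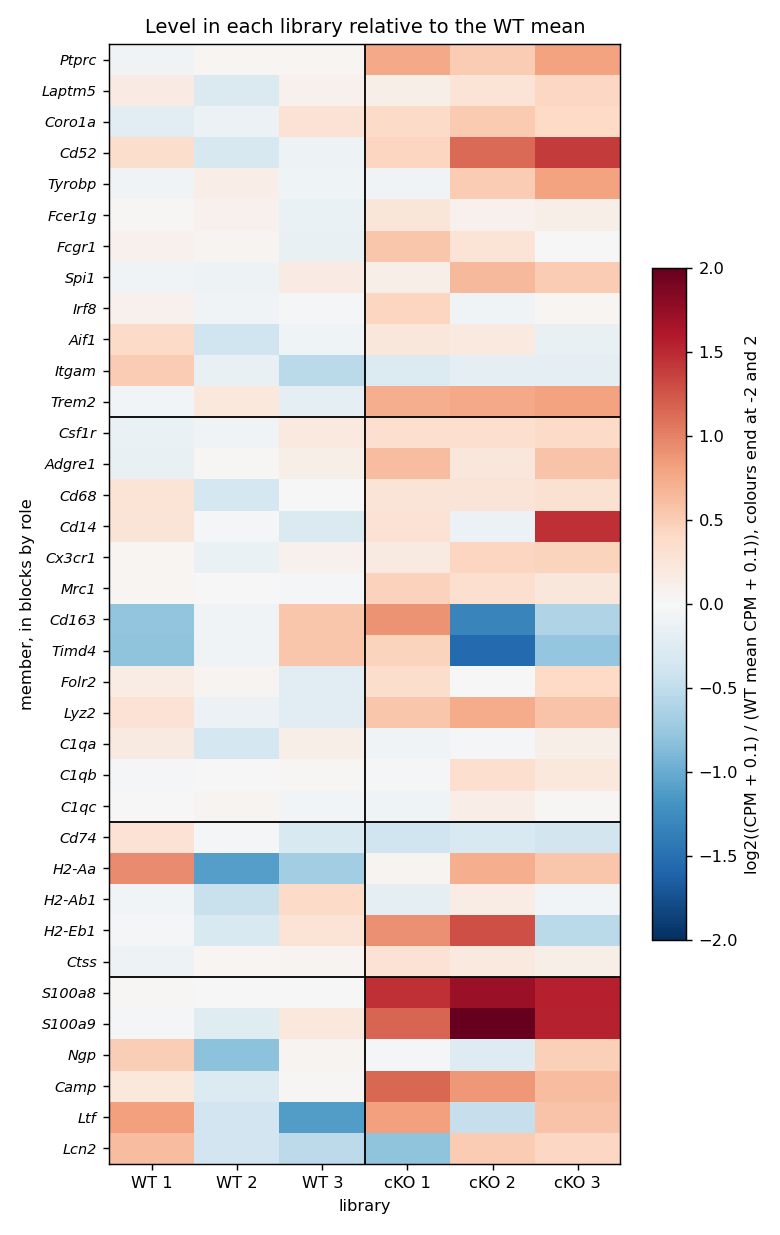
Level of each of the 36 genes in each library relative to its WT mean, as log2((CPM + 0.1) / (WT mean CPM + 0.1)), with red for higher and blue for lower and the colours ending at -2 and 2. The S100a8 and S100a9 rows are red in all 3 cKO columns, while Cd163 and Timd4 are red in cKO 1 and blue in cKO 2 and cKO 3.

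None of the 5 antigen presentation genes passed in edgeR, DESeq2 or limma-voom, and at an unadjusted p under 0.05 edgeR had 0 higher and 1 lower. The median log2 fold change was 0.20. Cd74, the invariant chain, had 8.04, 6.42 and 5.30 CPM in WT and 4.99, 5.29 and 5.07 in cKO. It is the single member whose cKO libraries all lay below WT, although WT 3 and cKO 2 nearly met (log2 fold change -0.37, SE 0.16, unadjusted p = 0.041, adjusted p = 0.19, edgeR). Ctss, the cathepsin that trims the invariant chain, had 9.83, 10.9 and 10.9 CPM in WT and 12.9, 12.1 and 11.4 in cKO. The cKO libraries all lay above WT and the difference was small (0.20, SE 0.10, adjusted p = 0.27, edgeR).

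The class II chains themselves were at low and uneven levels. H2-Ab1, the beta chain of I-A, had 2.33, 1.75 and 3.18 CPM in WT and 2.10, 2.69 and 2.32 in cKO, so that the cKO libraries lay inside the WT range. Its fitted value of -0.02 turned to 0.04 in limma-voom, 0.0004 with the replicate block, 0.22 without WT 3 and 0.06 without cKO 1. H2-Aa, the alpha chain of I-A, had 1.07, 0.18 and 0.28 CPM in WT and 0.53, 0.91 and 0.80 in cKO (0.55, SE 0.58). It reached the filter level in 1 WT and 3 cKO libraries, so it was tested because of its cKO libraries. WT 1 was its highest library and the other WT libraries its lowest, and the fitted value moved from 0.14 without WT 2 to 1.70 without WT 1. H2-Eb1, the beta chain of I-E, had 0.40, 0.32 and 0.53 CPM in WT and 0.88, 1.17 and 0.26 in cKO (0.87, SE 0.53, adjusted p = 0.36, edgeR), with cKO 3 the lowest of all libraries. Without cKO 2 its value was 0.40 and without cKO 3 it was 1.29.

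The H2-Aa and H2-Eb1 promoters (RefSeq, GRCm38.p6, chr17:34287837-34287937 and chr17:34305743-34305842) show the X and Y boxes of class II genes, on which the transactivator CIITA and the RFX complex act. Capitals mark the X box core, searched as CTNGCAAC, and then the Y box core, CTGATTGG.
H2-Aa: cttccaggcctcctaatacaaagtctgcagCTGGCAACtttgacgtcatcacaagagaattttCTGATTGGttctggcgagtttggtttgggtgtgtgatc
H2-Eb1: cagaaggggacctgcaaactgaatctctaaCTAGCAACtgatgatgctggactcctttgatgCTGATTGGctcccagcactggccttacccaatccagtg
The X box core lay 84 and 94 bases before the RefSeq starts, and the Y box core 51 and 62. The X box core was in 2.84% of all promoters and in 3 members (Cd163, H2-Aa and H2-Eb1). The Y box core was in 3.83% of all promoters and in 3 members (H2-Aa, H2-Eb1 and Irf8). Cd74 and H2-Ab1 had no entry. In a list of other class II pathway genes, of which 10 passed the filter, edgeR called 0 higher and 1 lower. That gene was Rfxank, a subunit of the RFX complex, at 13.3, 13.8 and 15.7 CPM in WT and 10.9, 10.1 and 10.3 in cKO. It fell by 0.46 on the log2 scale (SE 0.10, adjusted p = 0.017, edgeR) and did not pass without WT 2 (0.063), WT 3 (0.091) or cKO 2 (0.082). Ciita had 1.40, 2.05 and 2.34 CPM in WT and 1.83, 1.93 and 2.09 in cKO (0.02), with full overlap.

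Set side by side, the roles differed in size of the fitted values, and the difference between roles was not tested. Medians were 0.38 for leukocyte signalling, 0.28 for resident macrophages, 0.20 for antigen presentation and 1.06 for neutrophil genes. The last 2 rest on 5 tested genes each, among them H2-Aa and Ltf, which reached the filter level in more cKO than WT libraries. The neutrophil median is the value of Camp, a gene at 0.36 CPM in WT. With at least 1 CPM in 3 samples these 2 medians were -0.020 and 1.62. With no filter the neutrophil median was 0.77. Resident macrophage genes summed to 107, 97.0 and 105 CPM in WT and 129, 129 and 128 in cKO. Leukocyte signalling genes summed to 40.3, 35.6 and 38.0 CPM in WT and 46.7, 46.5 and 48.4 in cKO. For these 2 roles, the sums of all cKO libraries lay above those of all WT libraries. A sum is weighted to its most abundant genes. The macrophage sums include the called genes Mrc1 (means of 31.2 CPM in WT and 39.8 in cKO), Csf1r (14.6 and 18.6) and Lyz2 (7.4 and 11.5). The C1q subunits within them summed to 21.4, 19.4 and 21.1 CPM in WT and 19.9, 23.1 and 22.6 in cKO, which overlapped. Antigen presentation genes summed to 21.7, 19.6 and 20.2 CPM in WT and 21.4, 22.1 and 19.8 in cKO, which overlapped. The neutrophil genes summed to 10.1, 6.75 and 7.23 CPM in WT and 14.5, 21.6 and 18.3 in cKO, a gap carried by the S100 pair.

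**Figure D4:**
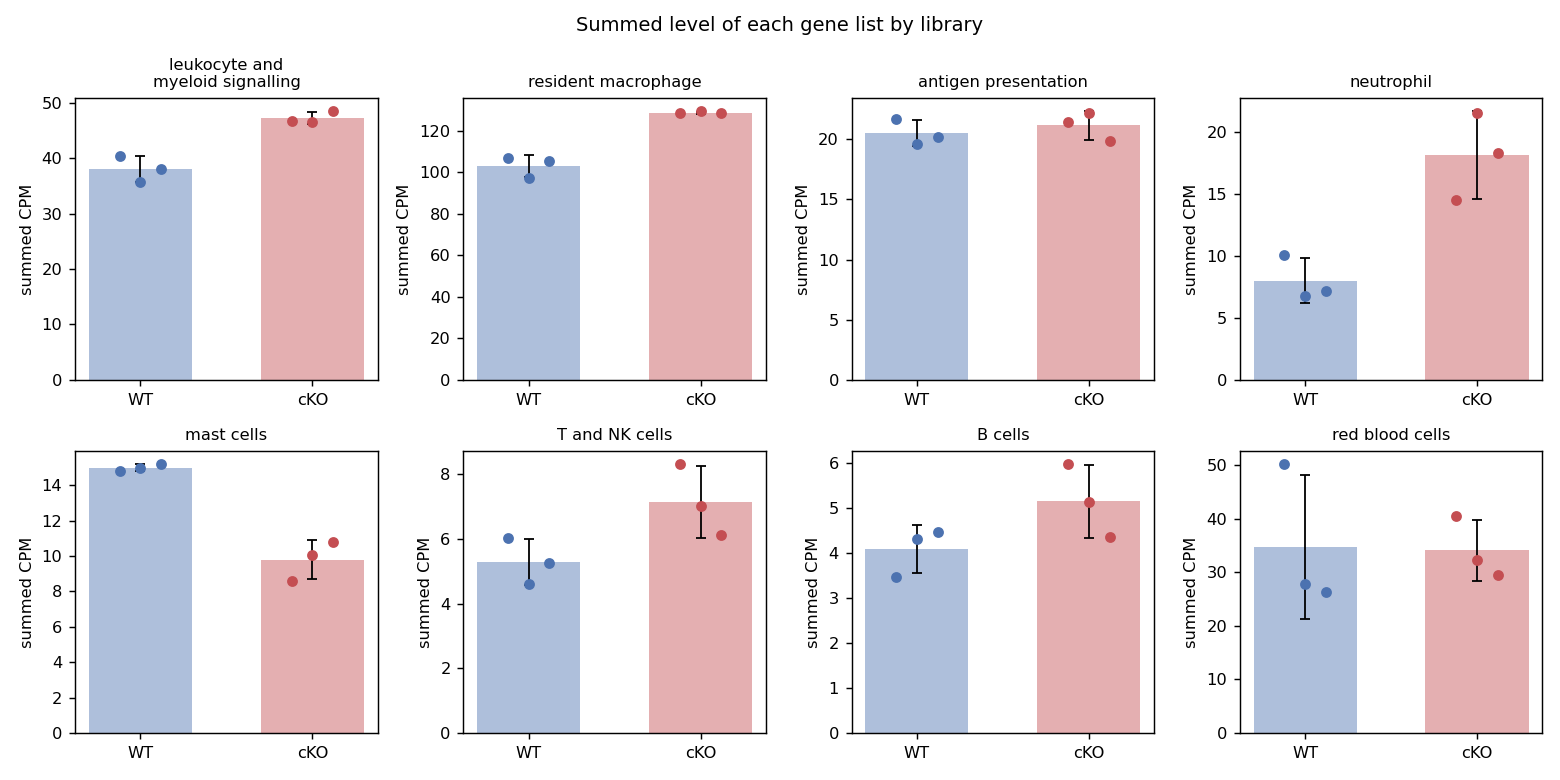
Summed CPM of each gene list in the 3 WT and 3 cKO libraries, with points for libraries, bars for means and error bars for SD, for the 4 roles and for mast cell, T and NK cell, B cell and red blood cell markers. The macrophage sums are 97.0 to 107 in WT and 128 to 129 in cKO, and the mast cell sums are lower in cKO.

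Levels per kilobase were set against that of Csf1r within each library, and the proportions were not constant. Csf1r was itself called higher in cKO (log2 fold change 0.36), so it is no fixed reference, and each ratio also carries its difference. S100a8 per kilobase was 1.24 ± 0.16 times Csf1r in WT and 2.96 ± 0.30 times in cKO (SD, n = 3). Cd74 stood at 2.11, 1.61 and 1.11 times Csf1r in WT and 0.94, 0.99 and 0.92 times in cKO. Ptprc stood at 0.050, 0.051 and 0.043 times Csf1r in WT and 0.065, 0.055 and 0.065 times in cKO. These ratios separated the groups, upward for S100a8 and Ptprc and downward for Cd74, although Cd74 by itself did not pass the test. The share of all genes whose ratio to Csf1r separates the groups was not computed. In CPM, without a ratio, 13.6% of all genes lay above WT in every cKO library and 14.6% below. Lyz2 stood at 1.93 ± 0.58 and 2.29 ± 0.19 times Csf1r, and these overlapped.

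Other genes of macrophage growth factor signalling were read beside the members. Csf2ra, the alpha chain of the GM-CSF receptor, had 34.1, 36.7 and 36.01 CPM in WT and 56.6, 50.7 and 51.0 in cKO (0.57, SE 0.07, adjusted p = 0.00047, edgeR). At 19.2 ± 0.7 CPM per kilobase in WT (SD, n = 3) it lay above every member of the set. Csf2rb, the beta chain gene, had 1.52 to 2.67 CPM in WT and 2.67 to 3.24 in cKO (0.54, adjusted p = 0.18, edgeR). Which cells gave the Csf2ra reads was not tested. The ligand gene Csf1 had 16.1 to 19.4 CPM in WT and 16.8 to 17.2 in cKO (-0.08, adjusted p = 0.66, edgeR). In a list of other macrophage genes 17 passed the filter, and 2 were higher and 2 lower, while DESeq2 and limma-voom each called 2 higher and 3 lower. Maf, a transcription factor also known from other cells of the testis, rose by 0.35 (SE 0.05, adjusted p = 0.0015, edgeR), and the scavenger receptor gene Stab1 by 0.28 (SE 0.07, adjusted p = 0.039, edgeR). The Stab1 call was lost in 8 of 15 alternatives, with adjusted p up to 0.16, reached without WT 3. Those libraries whose omission ended it were WT 1 (0.091), WT 2 (0.13), WT 3 (0.16), cKO 2 (0.1048) and cKO 3 (0.079). Spp1 (osteopontin) and Lpl (lipoprotein lipase), which macrophages share with other cell types, fell by 2.99 and 2.59 on the log2 scale. A pair of receptor genes just short of the threshold, chosen after their values were seen, lay below WT in every cKO library. Lyve1, a hyaluronan receptor of macrophages and lymphatic vessels, had 22.9, 19.02 and 17.9 CPM in WT and 17.8, 8.30 and 7.85 in cKO (-0.84, SE 0.24, adjusted p = 0.056, edgeR). Mertk, a receptor for the uptake of dying cells that Sertoli cells also carry, had 27.3, 26.1 and 28.5 CPM in WT and 22.9, 22.7 and 23.3 in cKO (-0.25, SE 0.07, adjusted p = 0.062, edgeR). In a list of monocyte and dendritic cell genes edgeR, DESeq2 and limma-voom called 0 of the 7 tested, with 0 at an unadjusted p under 0.05. Among them Zbtb46, a transcription factor of dendritic cells, had log2 fold change 0.13 and Plac8, a monocyte gene, 0.02. Zbtb46 had 53.6 to 54.3 CPM in WT, where Flt3 of the same list had 1.21 to 1.75. Which cells gave the Zbtb46 reads was not tested.

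Markers of other cells moved in several directions beside these genes. Mast cell markers summed to 14.8, 15.0 and 15.2 CPM in WT and 8.57, 10.03 and 10.8 in cKO. All 5 tested were fitted below 0, and Cpa3, the mast cell carboxypeptidase, fell by 0.76 on the log2 scale (SE 0.18, adjusted p = 0.025, edgeR), though not without WT 2 (0.11), WT 3 (0.11) or cKO 3 (0.054). T and NK cell markers summed to 4.61 to 6.02 CPM in WT and 6.11 to 8.30 in cKO, and 1 of 6 rose. It was Cd3e, a chain of the T cell receptor complex (1.23, SE 0.30, adjusted p = 0.023, edgeR), which did not pass without WT 2 (0.11), WT 3 (0.093) or cKO 2 (0.098). Its mean was 0.96 CPM in WT and 2.25 in cKO, a large part of the gap between the sums. The other 5 tested overlapped between groups and were not called: Il7r (0.46), Cd3g (0.38), Cd247 (0.13), Lck (0.09) and Cd4 (-0.18). B cell markers summed to 3.47 to 4.46 CPM in WT and 4.36 to 5.98 in cKO, with 0 of 5 called by edgeR, DESeq2 or limma-voom and 2 higher at an unadjusted p under 0.05. Red blood cell markers, an incomplete measure of blood in the sample, summed to 50.2, 27.7 and 26.3 CPM in WT and 40.5, 32.3 and 29.6 in cKO, with 0 of 5 called by edgeR, DESeq2 or limma-voom and 0 at an unadjusted p under 0.05. WT 1 had the highest sum. The alpha globin genes Hba-a1 and Hba-a2 had only 1 to 5 and 2 to 9 counts per library, so the sums rest mainly on Hbb-bs and Hbb-bt. Reads that mapped to several places were not counted, and copies of the alpha globin genes were not searched. Their low counts therefore do not show a low level. Within WT, Lcn2, Ltf, Ngp and Camp were also highest in WT 1, S100a9 was highest in WT 3 and S100a8 was nearly equal in all 3. The part of these cells, of blood and of the lower germ cell marker levels in the differences of the members was not tested. When libraries were scaled on 40 somatic cell markers instead, the median of the set was 0.26, and S100a8, S100a9, Ptprc and Lyz2 still passed, beside 1.92% of all genes that were higher under that scaling.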

How the data were processed

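The authors deposited a table of raw read counts per gene, made per the file headers with featureCounts 1.6.4 on GENCODE mouse release 18, counted on the gene's strand, without reads that mapped to several places or lay over several genes. The tools cutadapt and HISAT2 and, as the build, GRCm38.p5 are listed in the submitters' processing notes. Per the labels the libraries used random and poly(T) priming with transcript depletion, while the molecule field says polyA RNA. Exon lengths are those of the deposited table. Of 54232 genes, 54079 had a symbol in the GENCODE annotation used here.

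The filterByExpr filter (at its count minimum of 10 and total of 15, or 0.281 CPM here) left 20153 genes. It counts libraries of either group, so a low gene can be tested because of 1 group. H2-Aa reached that level in 1 WT and 3 cKO libraries, Camp in 2 and 3, and Cd14 and Ltf in 1 and 2. Cd163 and Timd4 reached it in 2 WT and 1 cKO libraries, and H2-Eb1 in 3 and 2. Libraries were scaled by TMM, and cKO was compared with WT by the edgeR 4.0.16 quasi-likelihood test (R 4.3.3, group as the only term, two-sided), with Benjamini-Hochberg adjustment over all genes kept. A call is an adjusted p under 0.05. CPM uses the TMM-scaled totals. The procedure was tested on simulated data. The 36 members and all lists were chosen with earlier results of these data known. The text names all members. From each other list it names the called genes (up to 4 with the lowest p), or the 2 most abundant tested genes where none was called, and defining genes at 0. Lists of testis cell types are given by counts, and for epithelium the lower genes are also named. Mmp8, Csf1, Csf2rb, Flt3, Ciita, Lyz1, Lyve1, Mertk, C3, C4b, Hba-a1, Hba-a2 and the neighbours of S100a8 were added after their values were seen. So were Cd3g, Cd4, Lck, Cd247, Il7r and the lower epithelial genes.

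Alternatives were median-of-ratios scaling, library size alone, scaling on 40 somatic markers, no filter, a minimum of 1 CPM in 3 samples, limma-voom (limma 3.58.1), DESeq2 1.42.0, a block for the replicate number, a robust fit and each library left out. Copies of the members, and of no other genes, were searched with minimap2 2.31-r1302 (at least 95% identity over 30% of the transcript). Promoters are from RefSeq. Figures used matplotlib 3.10.9.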

Additional observations from a re-analysis of the deposited data

How the results depend on the processing

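S100a8 and S100a9 were called in all 15 alternatives. Without 1 library, calls ranged from 2 to 8 over all members, 0 to 2 for leukocyte and myeloid signalling, 0 to 4 for resident macrophages, and were always 2 for neutrophil genes and 0 for antigen presentation. Median log2 fold changes then ranged from 0.27 to 0.37, 0.33 to 0.41, 0.18 to 0.36, 0.90 to 1.595 and 0.14 to 0.24, in that order. With somatic marker scaling the medians were 0.26 over all members, 0.29 for leukocyte signalling and 0.19 for resident macrophages, with 1 resident macrophage gene called. That scaling moved the median of all genes to -0.08 and its calls to 387 higher and 2212 lower, against 685 and 996; library size alone gave 607 and 1200. With at least 1 CPM in 3 samples, which tests fewer low genes, the antigen presentation median was -0.020 and the neutrophil median 1.62, and with no filter the latter was 0.77. Without 1 library, 1.13% (WT 2) to 8.09% (cKO 1) of all genes were higher.

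Same-numbered libraries deviated together with correlations of only 0.03, 0.01 and 0.07, so the replicate numbers were not taken as pairs. The replicate block gave 6 members called, a median of 0.35 over all members and 740 higher and 1058 lower genes, and turned H2-Ab1 to 0.00037.

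Without 1 library the following values turned sign, and the cause was not tested: Irf8 (-0.023 to 0.24), Aif1 (-0.073 to 0.35), Itgam (-0.50 to 0.14), Cd163 (-1.21 to 0.40), C1qa (-0.14 to 0.12), C1qc (-0.028 to 0.073), H2-Ab1 (-0.21 to 0.22), Lcn2 (-0.047 to 0.64), and, outside the members, Plac8 (-0.11 to 0.24), Hbb-bs (-0.37 to 0.33), Hbb-bt (-0.12 to 0.22), Gp1ba (-0.30 to 0.12) and Itga2b (-0.079 to 0.71). With somatic marker scaling C1qa was -0.079, C1qc -0.063, Plac8 -0.070 and Hbb-bt -0.064. C1qa was -0.0097 with library size alone, and H2-Ab1 0.043 in limma-voom. At this depth 7 of the 36 members were under 1 CPM in every library.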

Other observations

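The other marker lists of tissue cells were counted by the same rule (edgeR quasi-likelihood test, adjusted p under 0.05). Sertoli cell markers had 3 of 15 genes higher and 1 lower in cKO, and Leydig cell markers 3 of 7 higher and 0 lower. Endothelial markers had 1 of 11 higher and 0 lower, and peritubular and stromal markers 1 of 14 in each direction. Epithelial markers had 0 of 9 higher and 3 lower. The median log2 fold changes of these lists were 0.18, 0.22, 0.04, 0.06 and -0.45, in that order. The 3 lower epithelial genes were Epcam (-0.45), Krt7 (-1.47) and Cdh1 (-0.73). Which cells gave their reads, germ cells among them, was not tested. Both megakaryocyte markers tested, Itga2b (0.44) and Gp1ba (-0.16), had at most 1.11 and 0.44 CPM in any library and were not called. Among red blood cell markers Hbb-bs had 26.1, 13.98 and 10.6 CPM in WT and 19.7, 13.2 and 13.8 in cKO, and Hbb-bt 9.49 to 15.1 in WT and 9.80 to 13.5 in cKO. The B cell genes Ighm (0.59) and Cd79a (-0.53) were fitted in opposite directions, neither past the threshold.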
